A study of Caenorhabditis elegans with 31 samples.

Results

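Single-nucleus RNA libraries of whole adult *Caenorhabditis elegans* held 3194 nuclei whose RNA was rich in transcripts of germ cells between the mitotic zone and the pachytene stage of meiosis. In each library, nuclei with 800 to 20000 unique molecular identifiers (UMIs, tags that each mark 1 captured RNA molecule) were kept. Each kept nucleus was scored by the share of its UMIs that came from 14 germline genes, namely glh-1, glh-2, pgl-1, pgl-3, gld-1, him-3, htp-1, htp-3, syp-1, syp-2, nos-3, daz-1, deps-1 and chk-2. Nuclei with at least 3 of these genes detected and a score in the top 6% of their library are called germline-scored nuclei. They were thus selected on their own UMI counts of these 14 genes. They made up 5.59% of the 57155 kept nuclei, which in turn were 67.1% of all 85180 nuclei.

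The study measured 31 libraries in 5 batches and asked how exposure to alcohol in one generation is seen in later ones. Worms of every group, controls included, were JK560, a strain with the allele fog-1(q253) on chromosome I; as background, fog-1 is needed for germ cells to become sperm. The labels describe these worms as failing at the end of sperm formation and as having a complete germline but no fertilized embryos. The groups were the P0 generation without treatment, with nuclei sorted (1 library, 109 germline-scored nuclei) or unsorted (4 libraries, 280 nuclei), and lines labelled water, 0.05% ethanol or 0.5% ethanol in generations F1 and F3. In F1 the counts were 511 nuclei in 5 water libraries, 457 in 5 libraries of 0.05% ethanol and 324 in 3 libraries of 0.5% ethanol. In F3 they were 665 nuclei in 5 water libraries, 423 in 5 libraries of 0.05% ethanol and 425 in 3 libraries of 0.5% ethanol. Batch 1 held the sorted and 1 unsorted P0 library, batch 3 the other 3 P0 libraries, batch 2 water and 0.05% ethanol in both generations, batch 4 the 3 treatments in F3 and batch 5 the 3 treatments in F1. The labels do not say whether replicates came from separate cultures, so that p-values measure only the spread between these libraries, which may be technical.

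In the adult gonad, germ cells are arranged in order of development. At the distal end they divide under Notch signalling through the receptor GLP-1, then they enter meiosis, pair and synapse their chromosomes, and move through a long pachytene stage before they become oocytes or die by apoptosis. Germ cells carry P granules, perinuclear bodies of RNA and protein that also hold Argonaute proteins of the small RNA pathways, and in worms the X chromosome is known to be largely silent in mitotic and early meiotic germ cells.

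Library totals ran from 1218248 to 25500166 UMIs, and each library gave 27 to 207 germline-scored nuclei (median 101), with 41424 to 518345 UMIs summed over them. A germline-scored nucleus was shallower than the other kept nuclei, with a median of 1305 against 1802 UMIs, and the library medians were lower in 31 of 31 libraries. Simulated doublets marked 3.19% of germline-scored nuclei against 2.85% of all kept nuclei. Of the germline-scored nuclei, 7.39% also lay in the top 6% for a somatic type, most of them gonadal sheath with 4.23%, and 6.95% lay in the top 6% for oocyte genes. Libraries of 1 batch shared cell barcodes. Of 85180 barcodes, 81886 were distinct, 1857 occurred in more than 1 library, and the largest overlap was 233 barcodes between 0.05% ethanol F1 replicate 1 and water F3 replicate 1 of batch 2, against a median of 2 over 465 pairs. Barcodes shared within a batch made up 3.63% of germline-scored nuclei and 3.46% of the other kept nuclei. The tested comparisons, the log2 ratios of named genes and the X-linked share were also computed without them.

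The score itself was graded, with no gap at the threshold. Thresholds ran from 0.283% to 0.586% of UMIs over libraries, and the median germline-scored nucleus had a score of 0.510%, with 7 UMIs from 5 of the 14 genes. The 760 nuclei within 10% above their threshold had 8.25% of UMIs from X-linked genes and a syp-4 level of 246 CPM (UMIs of a gene as a share of all UMIs summed, scaled to a common total), whereas the 1044 nuclei within 10% below it had 8.71% X-linked UMIs and 215 CPM of syp-4. In the other kept nuclei, 24.8 to 45.5% per library also had at least 3 of the genes detected. The 14 genes summed to 5388 ± 709 CPM in germline-scored nuclei, 1217 ± 282 CPM in the other kept nuclei and 699.7 CPM in nuclei scored as body wall muscle, a somatic type.

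Levels below are CPM over the UMIs summed over the germline-scored nuclei of a library, as mean ± SD over 31 libraries, and log2 ratios are means over libraries of log2 of the CPM plus 1. Because the rule compares nuclei within a library, every difference between germline-scored and other kept nuclei is a description with no test. Counting genes at or above 10 CPM in either population, 823 of 9064 (9.08%) were higher in germline-scored nuclei in all 31 libraries and 939 (10.4%) were lower in all 31.

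The genes of the rule include P granule genes, translational regulators and genes of meiotic chromosome structure, and their higher levels follow from the selection. Among the P granule genes, the Vasa-like helicase gene glh-1 had 991 ± 204 CPM in germline-scored nuclei and 189 ± 25.1 CPM in the other kept nuclei, and the scaffold gene pgl-1 had 873 ± 211 against 203 ± 53 CPM. Among the translational regulators, gld-1, which restrains mitotic and oocyte messages during meiotic prophase, had 514 ± 276 against 119 ± 50.5 CPM. The chromosome axis gene htp-1 had 263 ± 56.0 against 47.7 ± 11.4 CPM, and syp-1, of the synaptonemal complex, 176 ± 44.1 against 35.2 ± 9.80 CPM. The kinase gene chk-2, which acts at the start of meiotic prophase, was the most variable, with 189 ± 134 against 19.7 ± 9.58 CPM, and had no UMI in the germline-scored nuclei of the unsorted P0 library of batch 1.

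Genes of meiosis that the rule did not use were higher as well. Of 21 genes for the chromosome axis, synapsis and pairing, 12 were higher in germline-scored nuclei in all 31 libraries, with a median log2 ratio of 1.34 beside 0.19 over all genes. syp-4, another synaptonemal complex gene, had 299 ± 114 against 75 ± 27.2 CPM, the cohesin gene coh-4 59.7 ± 24.7 against 13.9 ± 5.25 CPM and F57B10.4 160.3 ± 79.3 against 47.7 ± 19.2 CPM. skr-1, a ubiquitin ligase subunit gene used in many cells, was an exception with 187 ± 39.1 against 199 ± 28.2 CPM, while skr-2 had 178 ± 53.8 against 96.9 ± 23.9 CPM.

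The recombination list showed a similar shift, with a median log2 ratio of 1.29 over 23 genes, 6 of them higher in all 31 libraries. spo-11, which makes the double-strand breaks of meiosis, had 128 against 37.6 CPM and was named after its values were seen. The crossover gene msh-5 had 172 ± 53.9 against 48.6 ± 16.9 CPM and rmh-1, of the complex that processes crossover intermediates, 165 ± 90.9 against 44.9 ± 23.3 CPM. rad-50 and mre-11, genes of break repair that also work in dividing cells, had 412 ± 113 against 209 ± 55.8 CPM and 133 ± 43.6 against 58.4 ± 14.6 CPM.

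Genes of stem cell regulation, DNA replication and mitosis were also higher. The list of stem cell and proliferation regulators summed to 2321 ± 880.3 CPM in germline-scored nuclei and 988 ± 325 CPM in the other kept nuclei, with a median log2 ratio of 1.09 and 6 of 15 genes higher in all 31 libraries. The Notch receptor gene glp-1 had 344 ± 238 against 104 ± 49.9 CPM, and mex-3, whose RNA-binding product is found in the mitotic zone and in oocytes, 443 ± 258 against 171 ± 79.6 CPM. The DNA replication list had a median log2 ratio of 0.77 over 16 genes, 4 of them higher in all 31 libraries. Its sliding clamp gene pcn-1 had 396 ± 134 against 255 ± 85.9 CPM, and the helicase gene mcm-7 355 ± 112 against 197 ± 61.2 CPM. The mitosis and kinetochore list had a median of 0.84 over 13 genes, 2 higher in all 31 libraries, with the B-type cyclin gene cyb-3 at 545 ± 267 against 298 ± 121 CPM and the checkpoint kinase gene bub-1 at 187 ± 44.5 against 86.3 ± 23.3 CPM. Over all genes the median was 0.19, and 9.08% were higher in all 31 libraries. The replication list summed to 3285 ± 586 CPM in germline-scored nuclei and 2782 ± 646 CPM in nuclei scored as oocytes. For the mitosis list these sums were 2286 ± 464 and 1714 ± 466 CPM, and the stem cell list had 1332 ± 459 CPM in nuclei scored as oocytes.

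Germ granule genes outside the rule summed to 3060.3 ± 422 CPM in germline-scored nuclei and 1379 ± 332 CPM in the other kept nuclei, with 4 of 13 genes higher in all 31 libraries. The largest contributions came from cgh-1, an RNA helicase gene, with 965 ± 269.7 against 450.3 ± 154 CPM, and from car-1, an Lsm protein gene, with 887 ± 170.2 against 435 ± 78.8 CPM. Argonaute and small RNA genes summed to 2837 ± 574 against 1141 ± 304 CPM, with 10 of 14 higher in all 31 libraries. The Piwi gene prg-1 had 337 ± 79.3 against 121 ± 40.2 CPM, and wago-1, an Argonaute gene for secondary small RNAs, 664 ± 142.2 against 293 ± 68.7 CPM. alg-3 and alg-4, Argonaute genes of sperm formation, had 0 UMIs over all germline-scored nuclei, which allows a level of up to 0.458 CPM for each, counting error only.

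Of 14 genes for chromatin repression and inheritance, 4 were higher in all 31 libraries, and the sum was 1522 ± 261 against 696 ± 182 CPM. The H3K36 methyltransferase genes met-1 and mes-4, the second known for its part in keeping the X chromosome silent in germ cells, had 270.4 ± 76.4 against 122.4 ± 28.9 CPM and 127 ± 43.1 against 49.8 ± 17.1 CPM. Germ cell apoptosis genes summed to 506 ± 138 against 185 ± 53.9 CPM. They include cep-1, the worm p53 gene, with 103 ± 37.4 against 36.3 ± 9.77 CPM, and the caspase gene ced-3, with 88.2 ± 64.5 against 29.9 ± 15 CPM. The egl-1 gene, whose product triggers apoptosis, was uneven, with 66.2 ± 41.8 against 25.9 ± 13.6 CPM and higher in 26 of 31 libraries.

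**Figure D1:**
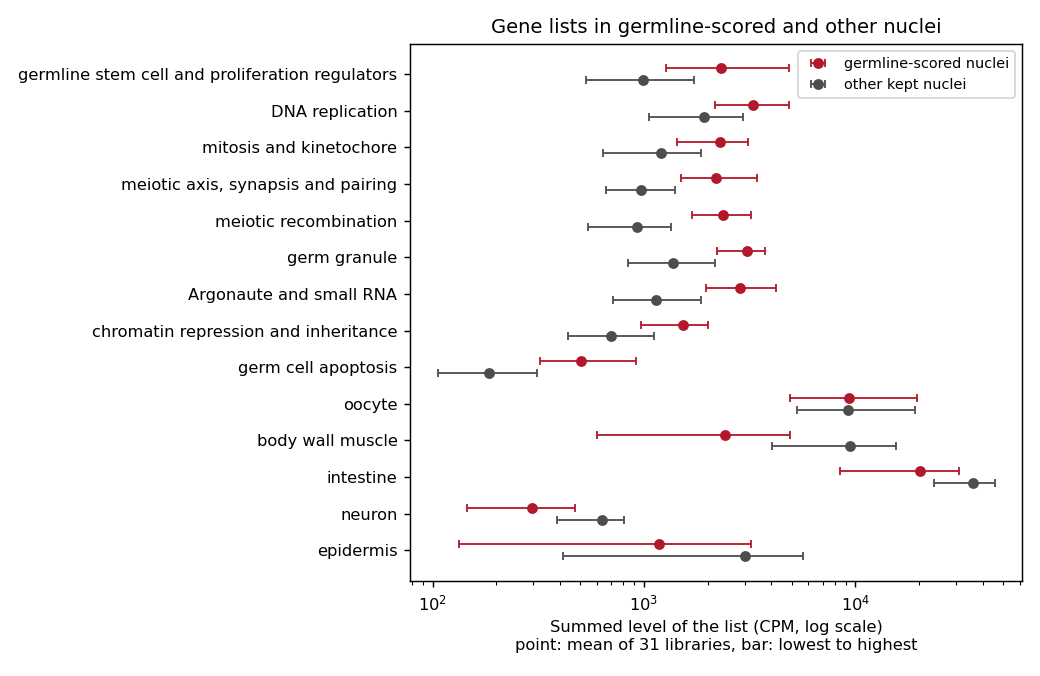
Summed level of each gene list in CPM on a log axis, with germline-scored nuclei in red above the other kept nuclei in grey, where points are means over 31 libraries and bars run from the lowest to the highest library. The recombination list ran from 1682 to 3204 CPM in germline-scored nuclei and from 542 to 1338 CPM in the others, whereas the oocyte list ran from 4892 to 19473 CPM and from 5303 to 19099 CPM.

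Levels of other cell types in the germline-scored nuclei were lower than in the rest but not at 0. The 8 body wall muscle markers summed to 2418 ± 1231 CPM in germline-scored nuclei, 9422 ± 3196 CPM in the other kept nuclei and 39892 CPM in nuclei scored as body wall muscle, and 8 of 8 were lower in all 31 libraries. The 9 intestine markers summed to 20126 ± 6103 CPM in germline-scored nuclei against 36054 ± 5836 CPM, close to the 18661 CPM in nuclei scored as muscle. In germline-scored nuclei most of this came from the vitellogenins (yolk protein genes) vit-2, vit-5 and vit-6. Gonadal sheath markers summed to 119 ± 42.7 against 219.6 ± 64.2 CPM, neuron markers to 295 ± 68.3 against 633 ± 94.8 CPM and epidermis markers to 1176 ± 808 against 3021 ± 1661 CPM. Spermatheca markers summed to 1525 ± 743 against 677 ± 204 CPM. That sum came from the filamin gene fln-1, with 1512 ± 743 against 636 ± 206 CPM, while sth-1, fkh-6 and ipp-5 were each below 7 CPM in germline-scored nuclei.

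The neighbouring stages of the germline set the limits of the label. Oocyte genes summed to 9382 ± 3604 CPM in germline-scored nuclei and 9191 ± 3275 CPM in the other kept nuclei, higher in 17 of 31 libraries, and to 36597 ± 15077 CPM in nuclei scored as oocytes. Nuclei scored as muscle had 10073 CPM of the same list, so its level in germline-scored nuclei did not exceed that in a somatic type. Its members differed, however: 11 of 15 were higher in germline-scored nuclei in all 31 libraries and 2 were lower in all 31, with a median log2 ratio of 0.73 over the list. cbd-1, cpg-1 and cpg-2, genes of the eggshell, were among the higher, with 908 ± 357 against 517 ± 184 CPM for cbd-1. perm-4, a gene of the eggshell permeability barrier, was among the lower, with 1111 ± 216 against 2833 ± 1317 CPM. Sperm genes had 24 UMIs in all germline-scored nuclei, from 13 of 17 genes.

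UMI detection followed the same order when every nucleus was thinned to 800 UMIs. glh-1 had a UMI in 48.1% of germline-scored nuclei, 13.1% of the other kept nuclei and 7.69% of nuclei scored as muscle, a type that should lack it. Among genes the rule did not use, syp-4 was detected in 17.4%, 5.83% and 3.22% of these nuclei and glp-1 in 18.6%, 7.83% and 4.07%. The muscle share is read as background, and the shares of syp-4 and glp-1 in germline-scored nuclei were above it, while that of glh-1 was set by the rule.

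Across all genes outside the rule with at least 50 CPM in germline-scored nuclei, 800 of 4520 were higher in all 31 libraries (813, or 18%, with the genes of the rule). The largest mean log2 ratios belonged to set-24, a SET-domain gene, with 242 ± 105 against 55.1 ± 17.6 CPM (log2 ratio 2.05 ± 0.60), and to C41G7.3, with 153 ± 63.2 against 36.6 ± 14.7 CPM (2.01 ± 0.58). coh-4, syp-4 and rmh-1 from the lists above and wago-4, an Argonaute gene of inherited silencing with 227 ± 89 against 64.7 ± 32.8 CPM, were also among the 20 largest. So were set-9, with 236 ± 96.0 against 58.7 ± 18.8 CPM, ppw-2, another Argonaute gene, with 292 ± 109 against 74.5 ± 17.2 CPM, and cpb-3, a gene for an RNA-binding protein of the CPEB family, with 236 ± 109 against 69.0 ± 31.9 CPM. prom-1, which regulates chk-2 and homolog pairing, ranged from 51.7 to 673 CPM over libraries with a mean log2 ratio of 1.75 ± 0.48. ife-5, a gene for a cap-binding protein of germ cells, had 139 ± 64.8 against 37.9 ± 7.81 CPM. let-716 had 444 ± 111 against 127 ± 36.7 CPM, utp-20, of ribosome production, 417 ± 106 against 124 ± 25.8 CPM, and immt-2, a gene of the mitochondrial inner membrane, 249.6 ± 59.8 against 74.0 ± 15.6 CPM. R119.1, Y66D12A.19, C30G12.6, Y65B4BL.3, R11A8.1 and D2005.4 completed the 20, with log2 ratios between 1.73 and 1.91.

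Of 3624 genes with at least 50 CPM in the other kept nuclei, 694 (19.2%) were lower in germline-scored nuclei in all 31 libraries. The smallest mean log2 ratios were those of abf-6, an X-linked antimicrobial peptide gene with 9.72 ± 10.8 against 59.2 ± 24.5 CPM, and of ttr-26, of the transthyretin-like family, with 18.4 ± 18.1 against 112 ± 47.5 CPM. fipr-2 had 57.2 ± 67.5 against 281 ± 193 CPM, the X-linked collagen gene col-166 36.4 ± 44.8 against 135 ± 107 CPM and the small heat shock gene hsp-12.3 15.4 ± 10.7 against 84.9 ± 32.3 CPM. ttr-21, F35B12.3, C02F5.14, Y51H4A.7 and ndnf-1 complete the 10 lowest.

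Stress genes divided by kind. hsp-1, the constitutive heat shock 70 gene of the cytosol, had 2601 ± 707 CPM in germline-scored nuclei and 1399 ± 204 CPM in the other kept nuclei, and hsp-4, its counterpart in the endoplasmic reticulum, 406 ± 96.8 against 205 ± 31.0 CPM, both higher in all 31 libraries. The inducible hsp-16.2 had 29.6 ± 24.6 against 73.5 ± 53.6 CPM. Of 9 genes for alcohol metabolism and stress, 5 were lower in all 31 libraries and 0 were higher. The alcohol dehydrogenase gene sodh-1 had 64.5 against 218 CPM, and was named after its values were seen, while the aldehyde dehydrogenase gene alh-1 had 295 ± 59.6 against 309 ± 40.1 CPM.

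X-linked genes gave a smaller share of UMIs in germline-scored nuclei in every library. The share was 6.71% ± 1.24 in germline-scored nuclei and 14% ± 1.35 in the other kept nuclei (SD, n = 31 libraries), with ranges of 3.99 to 9.06% and 10.8 to 15.9%, so that no germline-scored sum reached any of the others. The ratio of the shares within a library was 0.48 ± 0.06. Nuclei scored as oocytes had 13.1% ± 1.77 and nuclei scored as muscle 16.8% ± 1.05. Single nuclei showed the same difference, with a median of 7.14% in germline-scored nuclei and 13.6% in the other kept nuclei.

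Of the vitellogenin genes, vit-1 to vit-5 lie on the X chromosome, and vit-2 and vit-5 were among the genes with the most UMIs in germline-scored nuclei. Leaving them out gave 5.07% in germline-scored nuclei against 11.4% in the others, again lower in 31 of 31 libraries. By gene, among genes with at least 20 CPM in either population, the median log2 ratio was -1.40 over 754 X-linked genes. It was 0.67 over 1471 genes on chromosome I, 0.57 over 1264 on II, 0.64 over 1403 on III, 0.50 over 1289 on IV and 0.11 over 1265 on V. Of the 800 genes higher in all libraries 1 was X-linked, where 197 of the 4520 eligible genes were. It was mrp-4, an ABC transporter gene with 216 ± 193 against 107 ± 56.8 CPM, which was named after its values were seen. Of the 694 genes lower in all libraries 174 (25.1%) were X-linked, where 343 of the 3624 eligible genes were. meg-1, an X-linked germ granule gene, had 102 against 67.7 CPM.

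**Figure D2:**
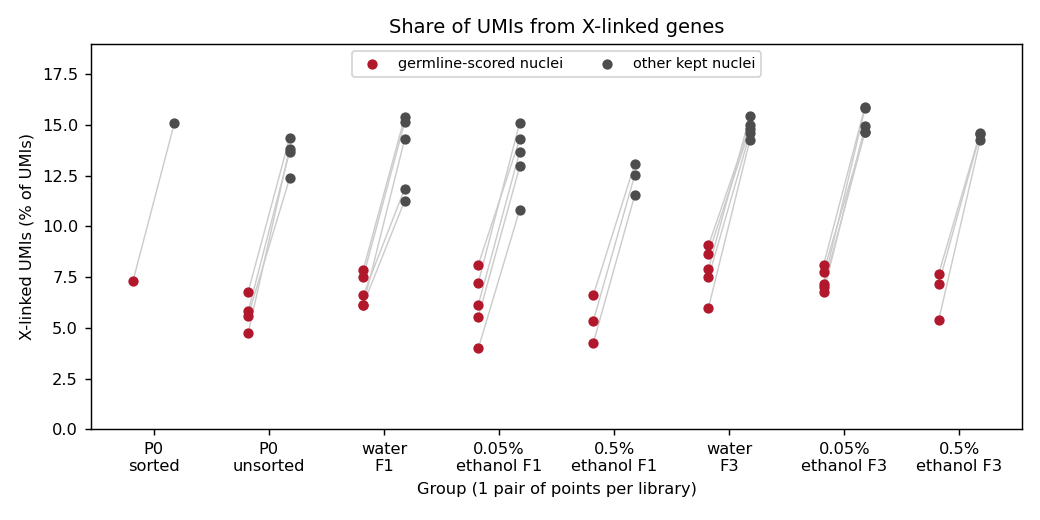
Share of UMIs from X-linked genes, in percent from 0, in germline-scored nuclei (left point of each pair) and in the other kept nuclei of the same library, by group. In 31 of 31 pairs the germline-scored value is the lower, and the ranges of 3.99 to 9.06% and 10.8 to 15.9% do not overlap.

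By library, the X-linked share of germline-scored nuclei was 7.33% in the sorted P0 library, 6.78% in the unsorted P0 library of batch 1 and 4.74, 5.81 and 5.60% in those of batch 3. In F1 it was 7.53, 7.86, 6.12, 6.15 and 6.60% in water, 7.23, 8.12, 6.14, 3.99 and 5.54% in 0.05% ethanol and 6.63, 4.28 and 5.36% in 0.5% ethanol. In F3 it was 9.06, 7.49, 8.65, 6.0 and 7.92% in water, 7.0, 7.18, 8.11, 7.78 and 6.76% in 0.05% ethanol and 7.66, 7.16 and 5.38% in 0.5% ethanol. The lowest value, 3.99%, was in the 0.05% ethanol F1 library of batch 5 replicate 2, and all treatments overlapped within each generation.

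The X-linked share was lower the higher the score, which is the rule's own measure. It was 5.43% in the top 1% of nuclei by score, 6.37% from 1 to 3%, 7.56% from 3 to 6%, 8.86% from 6 to 10%, 10.2% from 10 to 20%, 13% from 20 to 50% and 15.7% in the remaining nuclei. Recombination genes followed the score, with 2603 ± 519.6 CPM in the top 1%, 2207 ± 459 CPM from 3 to 6% and 616 ± 165 CPM in the lower 50%. DNA replication genes did not rank the upper bands, with 3159.8 ± 693, 3189 ± 659, 3329 ± 805 and 3310.1 ± 832 CPM in the 4 bands of the top 10%. Oocyte genes were highest between 6 and 10%, with 10863 ± 3271 CPM, against 8563 ± 4481 CPM in the top 1%.

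**Figure D3:**
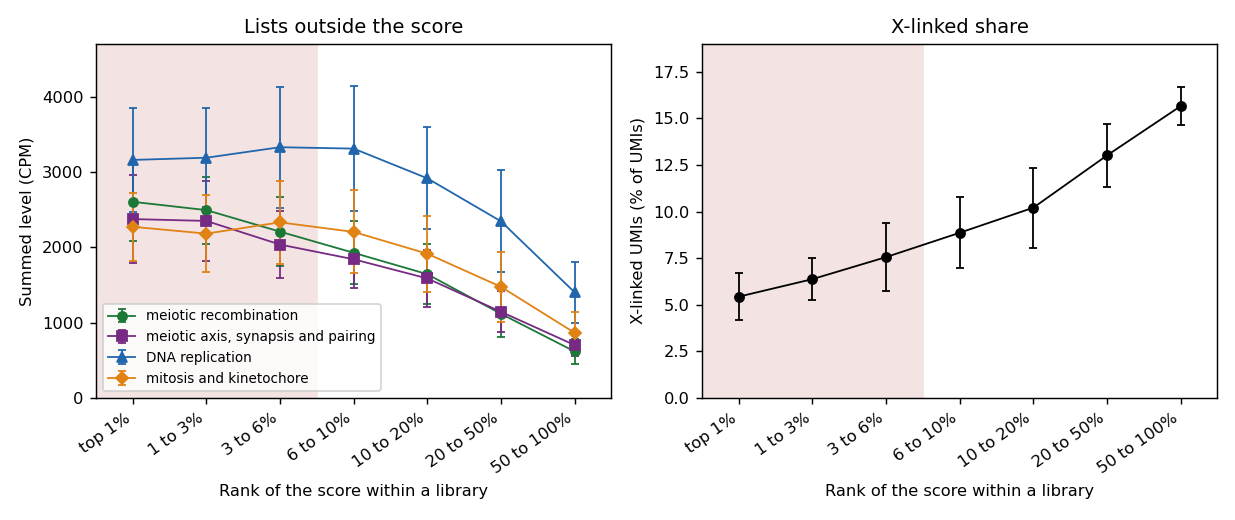
Left, summed CPM of 4 gene lists in bands of nuclei ranked by score within their library, from the top 1% to the lower 50%; right, the X-linked percent of UMIs in the same bands, where points are means and bars the SD over 31 libraries and the shaded bands form the top 6%. Recombination genes decline from 2603 to 616 CPM across the bands, replication genes stay between 3159.8 and 3329 CPM over the top 10%, and the X-linked share climbs from 5.43 to 15.7%.

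Within the germline-scored nuclei, detection of single genes marked different mixtures. chk-2 had a UMI in 691 nuclei (21.6%), with a median of 1437 UMIs per nucleus against 1276 in the nuclei without it, over 30 libraries. Nuclei with chk-2 had 2768 ± 539 CPM of recombination genes, against 2186 ± 442 CPM in those without (higher in 26 of 30 libraries), and 1820.2 ± 487 against 1402 ± 259.6 CPM of chromatin genes (higher in 27). They had 1806 ± 392 against 2393 ± 477 CPM of mitosis genes (lower in 28), 308 ± 302 against 576 ± 278 CPM of gld-1 (lower in 28) and 5849 ± 2059.8 against 10324 ± 3659.6 CPM of oocyte genes (lower in 29). Their X-linked share was 5.18% ± 1.81 against 7.29% ± 1.34, lower in 28 of 30 libraries. As background, CHK-2 is active in leptotene, zygotene and early pachytene nuclei, and GLD-1 protein is highest in pachytene. Since chk-2 and gld-1 both enter the score, the lower gld-1 level in nuclei with chk-2 is in part set by the rule. No stage is read from it.

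gld-1 had a UMI in 1483 germline-scored nuclei (46.4%). Those nuclei had 3290.5 ± 488 against 2687 ± 404 CPM of germ granule genes outside the rule, higher in 29 of 31 libraries, and 128 ± 98.1 against 281 ± 199 CPM of chk-2, lower in 28. Since both genes enter the score, a nucleus without one of them needs more of the others, and this relation is in part set by the rule. glp-1, which the rule does not use, had a UMI in 978 nuclei (30.6%), and these were deeper, with a median of 1817 against 1203.5 UMIs. They had 5.68% ± 1.31 against 7.66% ± 1.27 of X-linked UMIs, lower in 31 of 31 libraries, and 357 ± 135 against 241 ± 88.6 CPM of syp-4, higher in 28. Intestine genes summed to 16696 ± 7521 CPM in nuclei with glp-1, against 23347 ± 5340.1 CPM in those without. The part of depth and of RNA from other cells in these splits was not tested.

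The 3 unsorted P0 libraries of batch 3 stood apart from the other libraries, in their germline-scored and in their other kept nuclei. In germline-scored nuclei glh-1 had 619, 424 and 656 CPM, below all 28 other libraries. gld-1 had 853, 893 and 1068 CPM and daz-1, an RNA-binding gene of oogenesis, 706, 594 and 556 CPM. The daz-1 levels were above those of all 28 others. Since glh-1, gld-1 and daz-1 all enter the score, their levels in germline-scored nuclei are in part tied to each other by the rule. Of 4520 genes, 427 (9.45%) were higher in the 3 libraries than in all others and 151 (3.34%) were lower than in all others.

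Outside the rule, the genes of batch 3 that stood above every other library came from several lists, and they were named after their values were seen. glp-1 had 831 to 1068 CPM in batch 3 and 132 to 590.1 CPM in the other 28 libraries. spo-11 had 317 to 400.4 against 54.6 to 201 CPM, syp-4 545 to 608 against 147 to 381 CPM and oma-2, an oocyte maturation gene, 1722 to 1891 against 159 to 1345 CPM. Conversely csr-1, an Argonaute gene that protects germline genes, had 89 to 103 against 134 to 251 CPM, and hsp-1 1057 to 1390.3 against 2101 to 4299 CPM. Body wall muscle markers summed to 601 to 854 CPM in batch 3 and 732 to 4904 CPM elsewhere, and epidermis markers to 133 to 217 against 236 to 3208 CPM. The other kept nuclei of batch 3 differed as well. There the oocyte list summed to 14024 to 19099 CPM, against 5303 to 11982 CPM in the other kept nuclei of the other batches, the mean of the stem cell list was 1469 against 937 CPM, and the mean of the epidermis markers was 625 against 3278 CPM. Batch 3 held only untreated P0 libraries, so that batch and group cannot be told apart, and the part of the lower somatic RNA was not tested.

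**Figure D4:**
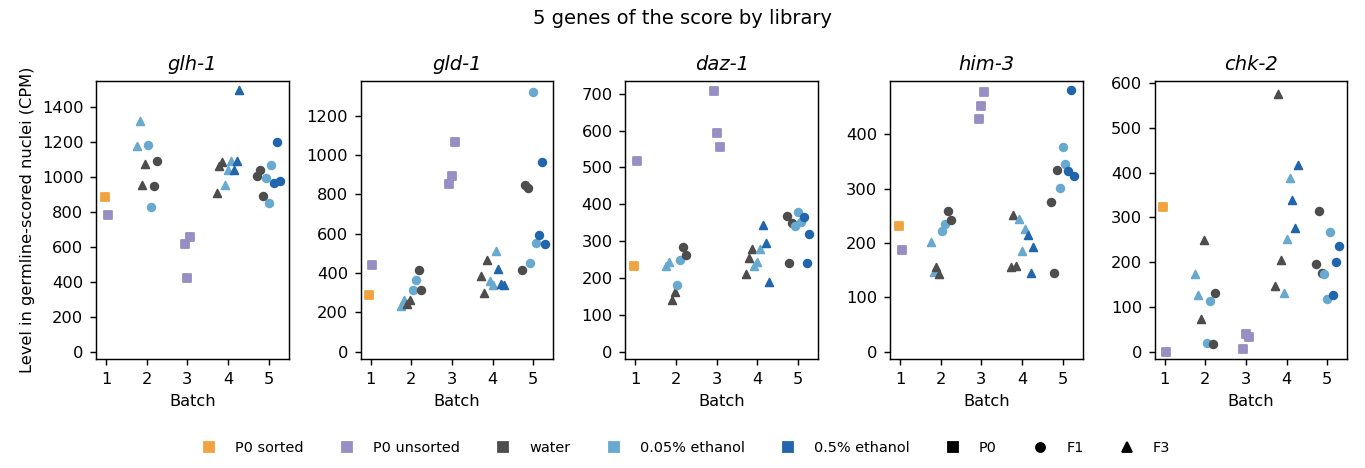
Level in CPM of 5 genes of the rule in the germline-scored nuclei of each library, by batch, with 1 point per library. In batch 3 glh-1 lies at 424 to 656 CPM, below all other libraries, and daz-1 at 556 to 706 CPM, above all others, while chk-2 varies within batches as well as between them. The levels of these genes are in part tied to each other by the rule.

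The first comparison by treatment asked whether the ethanol lines differed from water lines in germline-scored nuclei. All 26 water and ethanol libraries entered 1 edgeR quasi-likelihood fit of 6335 genes, with batches as terms. With Benjamini-Hochberg adjusted p below 0.05, 0 genes (0%) were called for 0.05% ethanol F1, 0.5% ethanol F1, 0.05% ethanol F3 and 0.5% ethanol F3. At an unadjusted p below 0.05 there were 141 (2.23%), 141 (2.23%), 196 (3.09%) and 270 (4.26%) genes in that order. DESeq2 called 0, 1, 0 and 0. Both doses of a generation share water libraries. The median standard error of a gene's log2 change was 0.308, 0.376, 0.292 and 0.338. In counts simulated for 0.5% ethanol F3 over 6122 genes, 62.5% of genes changed 2-fold and 99.1% of those changed 4-fold were called. The differences were placed only in genes of higher counts, with the same spread for every gene and no batch differences. The share of 2-fold changes that would be called in the real libraries was not tested.

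No gene of the lists was called in these comparisons. The median log2 change of the recombination list was 0.11, -0.01, 0.12 and 0.09 in the same order, that of the axis and synapsis list 0.03, 0.07, -0.08 and 0.07, and that of the Argonaute list 0.09, 0.07, 0.02 and 0.09. The stem cell list had 0.02, -0.19, 0.07 and 0.09. Over all genes tested the medians were between -0.03 and -0.00. The heat shock list, of which 6 genes were tested, had medians of -0.07, -0.76, -0.52 and -0.68, and the alcohol metabolism list -0.11, -0.13, -0.10 and -0.18, with 0 genes of either called.

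The genes with the smallest p in each comparison were as follows. R07G3.7 had 80.5, 91.3, 89.3, 141.6 and 120.5 CPM in 0.05% ethanol F1 and 64.8, 35.4, 40.9, 24.1 and 55.9 CPM in water F1, with every ethanol library above every water library, and a log2 change of 1.01 ± 0.28 (SE). gpa-16, a G protein subunit gene, had 78.4, 60.2 and 123 CPM in 0.5% ethanol F1 against 26.0, 0 and 34.4 CPM in the water libraries of its batch. Their adjusted p in edgeR was 1.00 each. In F3, Y9D1A.2 had 214, 377, 143, 169.9 and 101 CPM in 0.05% ethanol and 145, 105, 46.0, 44.3 and 47.8 CPM in water, with an edgeR adjusted p of 0.564. Each ethanol library lay above each water library of its batch, and the groups overlap when batches are pooled. One nucleus held 26 of the 59 UMIs of the highest library. The X-linked neuropeptide gene flp-12 had 37.7, 4.75 and 288 CPM in 0.5% ethanol F3 against 9.20, 11.1 and 9.56 CPM in water of its batch. There, 60 of the 63 UMIs of the highest library came from 1 of 97 nuclei, and the edgeR adjusted p was 0.634.

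None of the single values per library passed its test between treatments. The X-linked share was 6.20% ± 1.59 in 0.05% ethanol F1 and 6.85% ± 0.80 in water F1 (SD, n = 5 each), with p = 0.183 by exact two-sided permutation within batches. In 0.5% ethanol F3 it was 6.73% ± 1.20, against 7.52% ± 1.37 in water of its batch (SD, n = 3 each; exact permutation p = 0.5). Over the 12 tests of the X-linked share, the median UMIs per nucleus and the mitochondrial share, the adjusted exact permutation p lay between 0.667 and 1. The smallest p these designs allow is 0.0167 for 0.05% ethanol and 0.1 for 0.5% ethanol. No test of 0.5% ethanol could therefore pass at 0.05, and neither could a lone small p among the 12 after adjustment.

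The second comparison asked whether ethanol effects differed between germline-scored and other kept nuclei, by a test of the interaction over 10126 genes. edgeR called 0 genes (0%) for 0.05% ethanol F1, 1 (0.00988%) for 0.5% ethanol F1, 3 (0.0296%) for 0.05% ethanol F3 and 3 (0.0296%) for 0.5% ethanol F3. In F3, each dose had 1 positive (0.00988%) and 2 negative (0.0198%) differences. DESeq2 called 0 in each, and at an unadjusted p below 0.05 edgeR gave 363 (3.58%), 354 (3.5%), 525 (5.18%) and 439 (4.34%). None of the called genes belongs to a germline list. In counts simulated for this test over 9734 genes, 9.09% of 2-fold and 84.8% of 4-fold differences were called. These differences too were placed only in genes of higher counts, with the same spread for every gene and no batch differences.

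In the library with the highest level of each of these genes, 1 nucleus held a large part of its UMIs. flp-19, an X-linked neuropeptide gene, differed by 3.51 ± 0.63 in 0.05% ethanol F3 (SE, edgeR adjusted p = 0.00313), with 17.8, 192, 5.98, 7.72 and 46.5 CPM in ethanol and 5.79, 13.5, 4.60, 0 and 0 CPM in water. All 30 UMIs of the highest library were in 1 of its 59 nuclei, and without that library the difference was 2.36 with an adjusted p of 0.856. F22F4.5, also X-linked, differed by -3.81 ± 0.75 in 0.05% ethanol F3 (edgeR adjusted p = 0.011) and by -4.34 ± 0.91 in 0.5% ethanol F3 (adjusted p = 0.0273). Its level was 281 CPM in water F3 batch 4 replicate 1, where 48 of 61 UMIs were in a nucleus of 9089 UMIs, and 0 to 30.4 CPM in the other libraries of F3, and without that library the adjusted p-values were 0.63 and 1. acbp-6, an acyl-CoA binding protein gene, differed by -2.60 ± 0.55 in 0.05% ethanol F3 (edgeR adjusted p = 0.0317), with 45 of 61 UMIs in 1 nucleus of the same library and an adjusted p of 0.972 without it.

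The remaining calls were also lost without 1 library. Y75B7AL.2 differed by -3.55 ± 0.75 in 0.5% ethanol F3 (edgeR adjusted p = 0.0273), with 318 CPM in water F3 batch 4 replicate 2, where 81 of 86 UMIs were in 1 nucleus, and without that library its difference was 1.79, of the other sign. flp-12 differed by 3.36 ± 0.67 in 0.5% ethanol F3 (edgeR adjusted p = 0.0240) and by 1.39 with an adjusted p of 1 without its highest library. T20G5.8 differed by 3.33 ± 0.59 in 0.5% ethanol F1 (edgeR adjusted p = 0.00211), with 88.2, 0 and 73.6 CPM in ethanol and 14.9, 0 and 21.5 CPM in water. In its highest library 13 of 27 UMIs were in 1 of the 9 nuclei with a UMI, a smaller part than for the other called genes. Without that library the edgeR adjusted p was 0.935. phat-4, the gene with the smallest p for 0.05% ethanol F1, had an adjusted p of 0.291, and 40 of 44 UMIs of its highest library were in 1 nucleus.

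The third comparison set F3 against F1 in batch 2, the batch that held both generations, with 4 libraries each and treatment as a term. In germline-scored nuclei the genes that were lower in F3 included 4 oocyte genes and the 3 B-type cyclin genes tested by list, and those that were higher included muscle and collagen genes. In all, edgeR called 139 of 5372 genes (2.59%), 60 higher (1.12%) and 79 lower (1.47%) in F3, with a median absolute log2 change of 1.30 among them. At an unadjusted p below 0.05 there were 852 (15.9%), and DESeq2 called 63 genes, 58 of them among the 139. Over all genes, all F3 libraries lay above all F1 libraries for 131 (2.44%) and below for 352 (6.55%).

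Values are given for 0.05% ethanol replicates 1 and 2 and then water replicates 1 and 2. oma-2 had 220.1, 198, 233 and 159 CPM in F3 and 538, 469.5, 635 and 354 CPM in F1. Its log2 change was -1.24 with a standard error of 0.24 and an edgeR adjusted p of 0.00394. Every F3 library lay below every F1 library. The oocyte list had 4 of 15 tested genes lower, 0 higher and a median of -0.47 beside 0.01 over all genes, the other 3 being cpg-1 (-0.89), cpg-2 (-1.05) and puf-5, a gene for an RNA-binding repressor in oocytes (-0.82). Its sum was 5654 ± 744 CPM in F3 and 8621 ± 1000.5 CPM in F1, and in the other kept nuclei of the same libraries the mean sum was 5790.2 against 8459.7 CPM.

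The B-type cyclin genes cyb-1 (-1.08), cyb-2.1 (-1.19) and cyb-3 (-1.12) were the 3 called of 13 mitosis genes, each lower in F3, with a list median of -0.43. cyb-3 had 339, 192, 262 and 227 CPM in F3 and 514, 448, 812 and 532 CPM in F1, with no overlap (edgeR adjusted p = 0.0104). Of 16 DNA replication genes 2 were lower, the list median being -0.26. These were pcn-1 (-0.89) and the ribonucleotide reductase gene rnr-2, with 125, 192, 177 and 149 CPM in F3 and 389.9, 369.5, 518 and 273 CPM in F1 (log2 change -1.21 ± 0.25, edgeR adjusted p = 0.00517). In the other kept nuclei the mitosis list also had a lower mean sum in F3, with 704 against 1052 CPM, as did the replication list, with 1149.5 against 1712 CPM.

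Among lists closer to meiosis and the germ granule, few genes passed the test. meg-1 had 65.4, 19.2, 69.5 and 23.7 CPM in F3 and 111, 126, 225 and 137 CPM in F1 (log2 change -1.64 ± 0.33, edgeR adjusted p = 0.00397) and was the 1 called of 12 germ granule genes. brd-1, the worm BARD1 gene of homologous repair, was the 1 called of 21 recombination genes, with 89.2, 147, 79.1 and 176 CPM in F3 and 61.9, 60.9, 34.6 and 65.8 CPM in F1 (log2 change 1.19 ± 0.31, edgeR adjusted p = 0.0354). No gene was called of 20 axis and synapsis genes (median -0.02) or of 15 stem cell regulators (median -0.21), and the X-linked share was 7.68% in both generations. Of the 139 genes called, 20 were X-linked, where 6.38% of the genes tested were.

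Of 8 body wall muscle markers 4 were higher in F3, namely mup-2 (1.08), unc-22 (1.35), unc-89 (1.13) and the myosin gene unc-54 (0.94), and of 4 pharyngeal muscle markers 1, myo-1 (1.45). The muscle list summed to 4185 ± 606 CPM in F3 and 2514 ± 787 CPM in F1 germline-scored nuclei, and to a mean of 13352 against 11683 CPM in the other kept nuclei. Epidermis markers summed to 2401 ± 571 against 1528 ± 585 CPM with none of them called, and to a mean of 5173 against 4115 CPM in the other kept nuclei. The part of these cell types in the called genes was not tested.

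The 5 genes with the largest change and no overlap are plotted by library. Y50D7A.3 had 53.5, 83, 36.7 and 94.7 CPM in F3 against 6.19, 13, 4.32 and 5.06 CPM in F1 (log2 change 3.14 ± 0.58, edgeR adjusted p = 0.00198). The collagen gene col-149 had 125, 121, 147 and 67.6 CPM in F3 against 6.19, 34.8, 4.32 and 20.3 CPM in F1 (2.83 ± 0.42, adjusted p = 0.00038), and in the other kept nuclei it had means of 199 against 79.3 CPM. These and oma-2 were called with any 1 library left out. fipr-7 was higher in F3 by 2.87 ± 0.70 (adjusted p = 0.0222), and the X-linked innexin gene inx-3 (-2.82 ± 0.53, adjusted p = 0.00238) and T25E12.6 (-2.97 ± 0.82, adjusted p = 0.0432) were lower. Collagen-like names made up 21 of the 60 higher and 1 of the 79 lower genes, of 85 such genes tested, a pattern noticed after the values were seen.

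**Figure D5:**
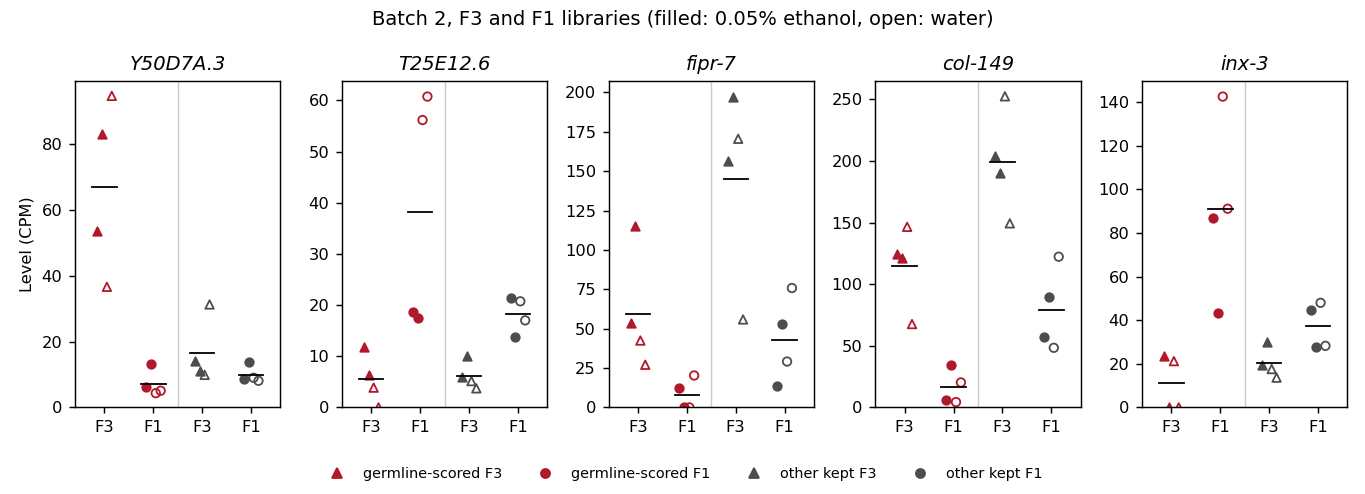
Level in CPM of the 5 genes with the largest called change between generations in batch 2, in germline-scored and in other kept nuclei, with F3 left of F1, filled points for 0.05% ethanol, open points for water and lines at the means. Y50D7A.3 runs from 36.7 to 94.7 CPM in F3 and from 4.32 to 13 CPM in F1 germline-scored nuclei.

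The difference between generations was seen in the other nuclei as well. Of the 60 genes called higher, 59 had a higher mean in F3 in the other kept nuclei too, and of the 79 called lower 79 had a lower mean there, with no test of the difference between the 2 populations. Of the 139 genes, 55 had a lower mean level in germline-scored than in other kept nuclei, as had 25.2% of the genes tested. With 1 library left out, the count ran from 35 to 179. Leaving out water F1 replicate 1 left 35 genes called, 34 of them among the 139, and of the list genes named above only oma-2 was still called, while inx-3 had an adjusted p of 0.051. Leaving out water F3 replicate 2 left 70 genes and leaving out 0.05% ethanol F3 replicate 2 left 73. Among the top 3% of nuclei by score 23 genes were called, and col-149 had an adjusted p of 0.158. The labels do not say whether the F1 and F3 libraries of batch 2 were prepared together.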

How the data were processed

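The authors deposited unnormalized UMI counts of genes in nuclei, as sparse matrices made by software of version 3.0.2, per the file headers. Cell Ranger (version not given) and the genome build ce10 are listed in the submitters' processing notes, and the use of strand is not given in the sources used here, so that overlapping antisense genes cannot be told apart. The matrices gave 0 value columns to leave out. Chromosomes come from the WBcel235 annotation by gene identifier (46817 of 46904, 99.8%), and no coordinates or sequences are printed.

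The members and the gene lists were chosen with earlier results of these data known, and the list names cdc-45, zsp-1, wago-3, cde-1 and daf-21 were not matched. Such genes can be present in the files under other names, and they are missing from the list sums and counts. Counts were summed over member nuclei per library (at least 20 nuclei) and tested in R 4.3.3 by the quasi-likelihood method of edgeR 4.0.16, after filterByExpr and with TMM factors. Every combination of batch and generation had its own baseline, and every dose its own effect in F1 and in F3. The test of interaction used 2 sums per library with library as a term. P-values were adjusted by Benjamini-Hochberg over all genes tested, with a threshold of 0.05. Single values were tested by exact permutation within batches. Alternatives included DESeq2 1.42.0, RLE factors, no filter on low counts, the replicate block, a top 3% rule, removal of doublets (Scrublet in scanpy 1.11.5, 0.8% per 1000 nuclei), of members scored as another type and of shared barcodes, and leaving out each library. Removal of shared barcodes, of vit-1 to vit-5 and of 3 shallow libraries together was chosen after seeing the data. Scripts were tested on simulated data.

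Genes named are the 14 of the rule; the 20 highest and 10 lowest mean log2 ratios among genes of at least 50 CPM that moved one way in every library (pseudocount 1 CPM); the 4 genes of each list with the most UMIs and every list gene called; and per comparison up to 5 called genes with groups apart, or the gene with the smallest p. Depth limits precision, as a library gave 41424 to 518345 member UMIs. Intervals and floors cover counting error only.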

Additional observations from a re-analysis of the deposited data

Results flagged for a closer look

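In groups of 4 or 5 libraries, 8 of 85 checks of a single value found 1 library far from the others. For independent values from a single distribution, chance would give about 1 in 20, or 4.25. These groups mix batches, and the genes of the rule are tied to each other by the score. This rate is therefore no measure of an excess here. The median UMIs per germline-scored nucleus were 1869 in 0.05% ethanol F3 batch 2 replicate 2, against 1291 to 1390.0 in the other 4 libraries of the group, and the same library had the lowest syp-1 level, 76.6 CPM against 209 to 239 CPM. gld-1 had 1322 CPM in 0.05% ethanol F1 batch 5 replicate 2 against 316 to 550.0 CPM. That library also had an oocyte list sum of 19473 CPM, the highest of the 31. him-3 was low in the unsorted P0 library of batch 1, with 187 CPM against 429 to 478 CPM, where the other 3 libraries all came from batch 3, and high in water F3 batch 4 replicate 2, with 251 against 142.1 to 158 CPM. In 0.05% ethanol F3 batch 4 replicate 3, htp-3 had 310.3 CPM against 102 to 151 CPM and daz-1 279 against 232 to 243 CPM. deps-1 had 340 CPM in water F3 batch 4 replicate 3 against 233 to 260.4 CPM. All of these genes entered the rule.

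For 6 genes an ethanol effect differed between germline-scored and other kept nuclei by the edgeR test of interaction. The log2 differences were 3.33 for T20G5.8 in 0.5% ethanol F1, 3.51 for flp-19, -3.81 for F22F4.5 and -2.60 for acbp-6 in 0.05% ethanol F3, and 3.36 for flp-12, -3.55 for Y75B7AL.2 and -4.34 for F22F4.5 in 0.5% ethanol F3. Each call was lost when the library that held the gene's richest nucleus was left out, and DESeq2 called none of them.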

How the results depend on the processing

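The X-linked share of germline-scored minus other kept nuclei was -7.33 percentage points, -7.40 to -7.27 with any library left out and -6.31 without vit-1 to vit-5. Of the alternative values for log2 ratios of named genes, 491 stayed within the spread, 3 moved and 2 changed sign, ssp-9 (-0.11) and msp-142 (-0.060) with the top 3% rule. Called counts for germline-scored nuclei, 0 for each dose, became 1 with DESeq2 and 1 with no filter (0.5% ethanol F1), 7 with no filter, 1 with the replicate block and 1 with only the compared libraries (0.05% ethanol F3), 5 with no filter (0.5% ethanol F3) and 0 to 1 with a library left out (0.5% ethanol F3). The 139 genes of batch 2 became 63 with DESeq2, 229 with the replicate block, 23 with the top 3% rule and 35 to 179 with a library left out.

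Interaction counts were 0 for 0.05% ethanol F1, and 1 with no filter, 3 with the replicate block, 1 with only the compared libraries, 1 without the 3 libraries of batch 5 replicate 2, and 0 to 2 with a library left out. For 0.5% ethanol F1 the count of 1 became 0 with DESeq2, 2 with no filter, 2 with the replicate block, 0 with the top 3% rule, 3 with only the compared libraries, 4 without those 3 libraries, and 0 to 2 with a library left out. For 0.05% ethanol F3 the count of 3 became 1 with RLE factors, 0 with DESeq2, 1 without nuclei scored as another type, 1 without shared barcodes, 5 with only the compared libraries, and 1 to 6 with a library left out. For 0.5% ethanol F3 the count of 3 became 0 with RLE factors, 0 with DESeq2, 0 without nuclei scored as another type, 5 with only the compared libraries, and 0 to 4 with a library left out. The causes were not tested. Differences that changed sign were phat-4 (-0.42 with the top 3% rule, -4.61 to 4.00 with a library left out), flp-12 (-1.41 with the top 3% rule) and Y75B7AL.2 (-4.62 to 1.79 with a library left out).

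No permutation test passed under any alternative run, but none could have. Each alternative p was adjusted together with the main p-values of the other tests, which were all at least 0.183. Signs changed for median UMIs in 0.5% ethanol F3 (5.83 with the top 3% rule, -69.5 to 53 with a library left out) and F1 (11 without shared barcodes, 3.50 without nuclei scored as another type), and for the mitochondrial share in 0.05% ethanol F1 (-0.454 with the top 3% rule), 0.5% ethanol F3 (-0.00773 without shared barcodes, -0.0342 to 0.238 with a library left out) and 0.05% ethanol F3 (-0.111 to 0.112 with a library left out). Same-numbered libraries correlated in their deviations by 0.0617 to 0.228 (0.05% ethanol and water F1), 0.0928 to 0.129 (0.5% and water F1), 0.0640 to 0.206 (0.05% and water F3) and -0.168 to 0.306 (0.5% and water F3), and matched their own number best in 5 of 5, 3 of 3, 4 of 5 and 1 of 3. Groups of batch 2 had 2 libraries each, so both numbers gave the same correlation, 0.208 in F1 and 0.163 in F3. The counts out of 5 hold that outcome 2 times. Between generations in batch 2 the correlations were 0.109 and 0.240. The 0.05% and 0.5% ethanol libraries correlated by 0.0959 to 0.255 in F1, with 3 of 3 best matches, and by -0.0735 to 0.182 in F3, with 1 of 3. All libraries of batch 5 replicate 2 were small, with 492, 456 and 495 kept nuclei in 0.05% ethanol, 0.5% ethanol and water. No label says what the numbers stand for, so the block is not read as pairing, and the main fits and permutations do not use it. A shared source of same-numbered libraries was not tested. With 27 to 207 nuclei per library, 9.09% of 2-fold and 84.8% of 4-fold differences simulated in genes of higher counts were called in the interaction test. Depth itself was not varied.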
